A study of Ovis aries with 2 samples.

Results

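The sequence next to the centromere of the sheep Y-chromosome was described here by its CpG methylation. It consists of 2 stretches of 120764 bp each, 1 on either side of the centromeric array, at chrY:7917629-8038392 (left) and chrY:8159157-8279920 (right) of ARS-UI_Ramb_v3.0. The members are the CpG sites at these positions, 1644 on the left and 1141 on the right, which makes 2785 of the 372890 CpG sites of the chromosome. The sites were chosen by position, counted from the borders that the study gives for the array. The study defined its centromeres by tandem repeats and also by cytosine methylation, so the borders may not be independent of methylation. Earlier results of these data were also known when the sites were chosen. All sites had a value on both platforms.

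The DNA came from lung tissue of a single male fetus at 100 days of gestation, the F1 of a Churro sire and a Friesian dam, so that the Y-chromosome is of Churro origin. No allele was altered and no treatment was given. The same animal was read once with PacBio HiFi and once with Oxford Nanopore Technology (ONT), so the only repeat is technical. No test was made, and a difference is called larger than the platform spread where both platforms show it with the same sign and it exceeds the SD between them. Lung is a mixture of cell types, and a level between the extremes cannot be told apart from a mixture of cells with and without methylation at that site.

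A centromere is the stretch of a chromosome on which the kinetochore is built in cell division, marked by nucleosomes that carry the histone variant CENP-A. In mammals it usually lies in tandem repeats whose CpG sites are methylated, and the part bound by CENP-A is often less methylated than the repeat around it, which is called a centromeric dip region. Outside of repeats, CpG sites in mammalian DNA are mostly methylated, while CpG-dense stretches at the starts of active genes, the CpG islands, are mostly free of methylation. The array of the sheep Y is built of composite units that contain the ruminant transposable elements BOV-A2 and BovB beside unannotated sequence.

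Both flanks were methylated to an intermediate level. The left flank had 58.0% (SD 28.1 between CpG sites) on PacBio and 50.1% (SD 24.9) on ONT. The right flank had 56.2% (SD 24.8) on PacBio and 49.0% (SD 21.9) on ONT. Pooled over all calls, the left flank gave 59.4% on PacBio (Wilson bounds at 95% of 59.0 and 59.8) and 48.7% on ONT (48.5 and 49.0), and the right flank gave 56.9% (56.4 and 57.3) and 48.4% (48.1 and 48.7). These intervals cover counting error only, and the gap between the platforms is many times wider than any of them. The left flank was above the right one by 1.89 percentage points on PacBio and by 1.11 points on ONT. As a mean over sites this difference had the same sign on both platforms and exceeded its SD between them, 0.55 points. Pooled over calls it was 2.55 points on PacBio and 0.28 on ONT, of which the latter is within that SD. Its size depended mostly on 1 stretch of low methylation. Without the runs of low methylation described below it was 7.48 and 6.07 points.

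The levels lay near those of the male-specific region, which outside of the array and the flanks had 57.5% on PacBio and 49.1% on ONT over 205107 CpG sites. The sequence farther out differed from the flanks. The next 120764 bp on the left, outward from the left flank, had 70.1% and 60.6%, and the next 120764 bp on the right had 74.2% and 66.2%. The flanks were thus lower than their outer neighbours on both sides and on both platforms. The SD between the platforms, 5.63 points for the left flank and 5.08 for the right, is that of the flank level. None was computed for these gaps. Without the low run the left flank had 63.9% and 55.3%, and its gap to the outer neighbour was smaller on both platforms. Low sites were left out of the flank only, and the outer left neighbour kept 193 sites at 20% or less on both platforms.

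The intermediate mean was made mostly of intermediate sites. On the left, 56.4% of the sites lay between 20% and 80% methylation on PacBio and 75.2% on ONT. On the right, these shares were 68.0% and 80.4%. Sites at 80% or more took 29.99% of the left flank and 22.1% of the right flank on PacBio, against 9.98% and 8.24% on ONT. Sites at 20% or less took 13.6% and 9.90% on PacBio, and 14.8% and 11.4% on ONT. In the outer neighbours the share of PacBio sites at 80% or more was 61.7% on the left and 53.8% on the right. On both platforms at once, 148 left and 85 right sites reached 80% and 198 left and 82 right sites stayed at 20% or less.

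PacBio read higher than ONT in both flanks, by 7.96 points on the left (SD 12.97 over sites) and 7.19 points on the right (SD 13.4), and it was the higher value at 76.5% and 72.7% of the sites. Elsewhere in the male-specific region the offset was 8.39 points. Site by site, the platforms had a Pearson correlation of 0.89 on the left over 1644 sites and 0.84 on the right over 1141 sites, as a description, since neighbouring sites share reads. The ONT strands differed little in their means, with 50.5% and 49.4% on the 2 strands of the left flank and 49.2% and 48.1% on those of the right. At single sites the median absolute difference between the strands was 7.70 points on the left and 8.67 on the right.

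In bins of 1 kb counted from the array edge, each flank gave 121 bins, the last of them shorter. A bin held a median of 9 CpG sites on either side, but the highest number was 113 on the left and 30 on the right. On the left, 118 bins held at least 3 sites, and their methylation ran from 3.75% to 91.1% on PacBio (median 60.5%) and from 2.13% to 80.6% on ONT (median 52.0%). On the right, 115 bins held at least 3 sites and ran from 19.9% to 82.2% on PacBio (median 54.9%) and from 17.5% to 70.9% on ONT (median 47.4%). The lower and upper quartiles were 53.1% and 68.0% on the left and 45.4% and 63.0% on the right on PacBio. The right flank therefore lacked both the emptiest and the fullest bins of the left one, and its middle lay lower.

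**Figure D1:**
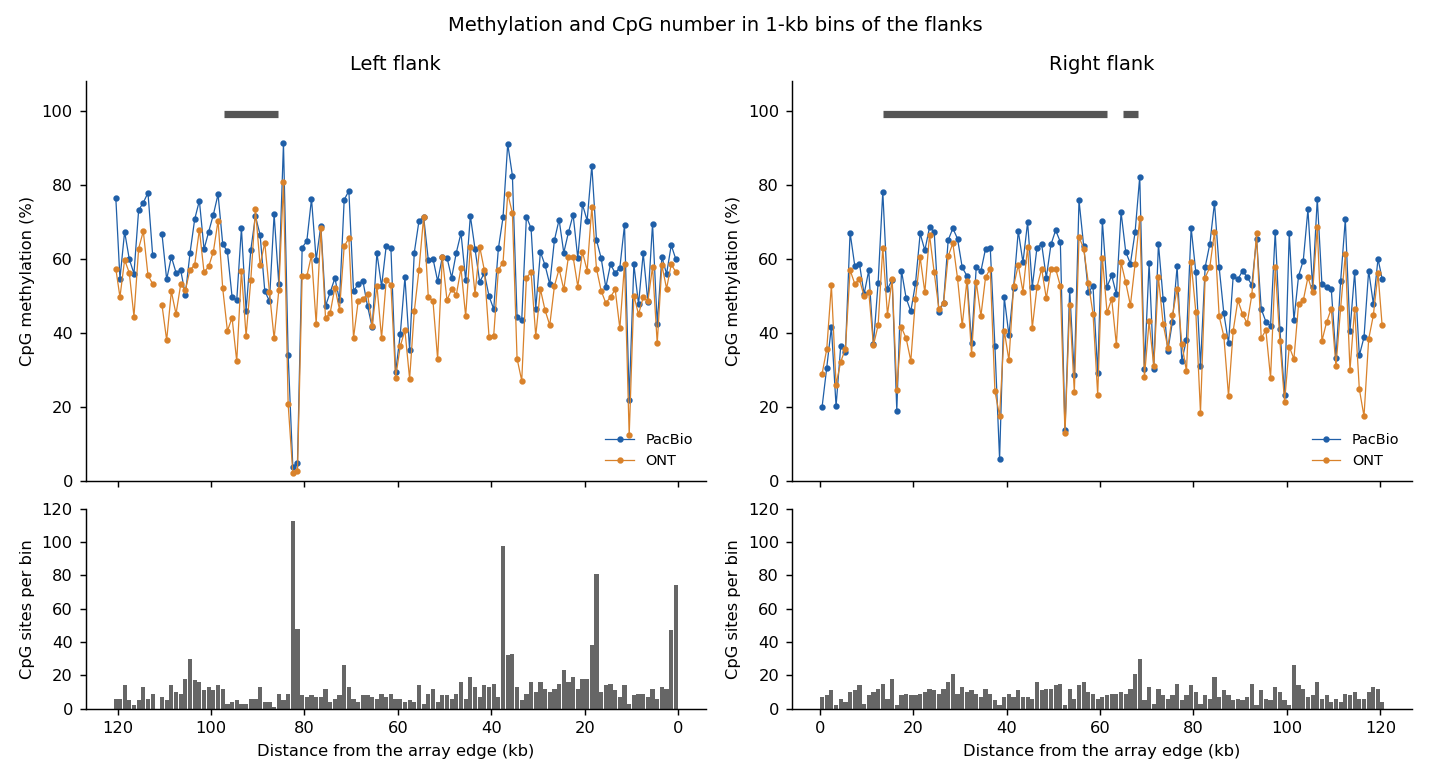
Upper panels: mean CpG methylation (%) of each 1-kb bin on PacBio (blue) and ONT (orange) against the distance from the array edge (kb), with the array towards the middle of the picture and grey bars for annotated genes. Lower panels: CpG sites per bin. The 2 bins between 81 and 83 kb on the left are below 5% on both platforms although they hold 48 and 113 sites, while all other bins with 30 or more sites are above 50%.

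A bin was called low where both platforms gave 20% or less and it held at least 3 sites. Of 233 such bins in the flanks, 2 were low, or 0.858%, against 1.38% of the 1-kb bins of the male-specific region and 1.68% of those of the pseudoautosomal region. A bin was called high where both platforms gave 80% or more. There was 1 high bin, or 0.429%, against 1.63% in the male-specific region and 8.07% in the pseudoautosomal region. Neither share was above its background, and both low bins belong to 1 stretch.

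That stretch was the strongest feature of either flank. At chrY:7955379-7957141, 81253 to 83014 bp from the left edge of the array, 160 consecutive CpG sites were each at 30% or less on both platforms. Their mean was 3.85% (SD 1.97 over sites) on PacBio and 2.12% (SD 1.95) on ONT. No site exceeded 16.0% on PacBio or 12.3% on ONT, 136 of the 160 were at 5% or less on both platforms, and 24 had no methylated ONT call at all. Pooled over its calls, 1.36% of 4044 PacBio calls (95% Wilson interval 1.05 to 1.77) and 2.07% of 18264 ONT calls (1.87 to 2.29) were methylated. The PacBio calls come from the same 25 or 26 reads at each site, so the intervals are too narrow. The mean over sites is of the modelled PacBio percentage and the pooled share is of the deposited read numbers.

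The run was dense in CpG sites, with 90.8 sites per kb and a median of 7 bp between neighbours, against 13.6 sites per kb in the left flank as a whole. PacBio depth in it was 25 reads, with a range of 25 to 26, below the flank's median of 33. ONT depth was 117 calls, above the flank's median of 96. The part of depth in the level was not tested.

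The level rose beyond both ends of the run with a return to low values. Beyond its higher end, the next site, 7 bp on, had 47.2% on PacBio and 24.8% on ONT. The site 94 bp on was back at 11.6% and 11.1%. The next 4 sites, from 306 to 757 bp on, lay between 45.3% and 85.0% on PacBio and between 30% and 78.0% on ONT. Beyond its lower end, the sites 43 and 83 bp away had 36.3% and 13.1%, and 54.1% and 19.0%. The next 3 sites, between 114 and 203 bp away, returned to 17.4% or less on PacBio and 4.95% or less on ONT, and the site at 334 bp had 45.0% and 41.0%. PacBio was the higher platform at each of these 6 sites on the lower side.

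No annotated gene overlaps the run. The nearest one is LOC132659054, a long non-coding RNA on the plus strand at chrY:7941038-7952870, whose 3′ end lies 2509 bp below the run. The bin between the 2, at 84 to 85 kb, was the highest of the left flank, with 91.1% on PacBio and 80.6% on ONT over 5 sites. The level thus went from the highest to the lowest bins of the flank within 2 kb, by way of a bin of 9 sites at 34.1% and 20.8%.

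A part of the run recurs elsewhere on the chromosome in the order of its CpG sites. When the distances between its sites were laid over every position of the Y-chromosome in both orientations, the best place was chrY:8778941-8780703, in the same orientation and 823562 bp away, on the other side of the array. There, 74 of the 160 sites (46.2%) fell exactly on a CpG site, against 48 at the next best place. In 4 sets of 40 sites, the third had the highest share, with 36 sites (90.0%) coinciding. The fourth had 17 (42.5%), and the first and second had 12 and 13 (32.5%) at their own best shifts of -14 and 10 bp, so that the likeness rests largely on the third set. This comparison uses the positions of CpG sites and not the sequence between them.

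The second place was also low in methylation, but less so. Its 157 sites had 12.5% on PacBio and 12.6% on ONT, and its longest run by the same rule held 67 sites at 7.06% and 7.67%. At the 74 coinciding sites the left flank had 3.61% and 2.16%, and the second place had 15.1% and 14.4%. The first of 4 equal parts of the second place, with 6.60% and 6.01%, was nearest to the run of the flank, with 4.67% and 2.47%, and the third part, with 21.9% and 19.1%, was farthest, against 3.83% and 1.704%. Depth there was 41 reads on PacBio and 87 calls on ONT. Its nearest annotated gene, the long non-coding RNA LOC132659063, ends 26228 bp away, so neither of the 2 places overlaps an annotated gene.

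**Figure D2:**
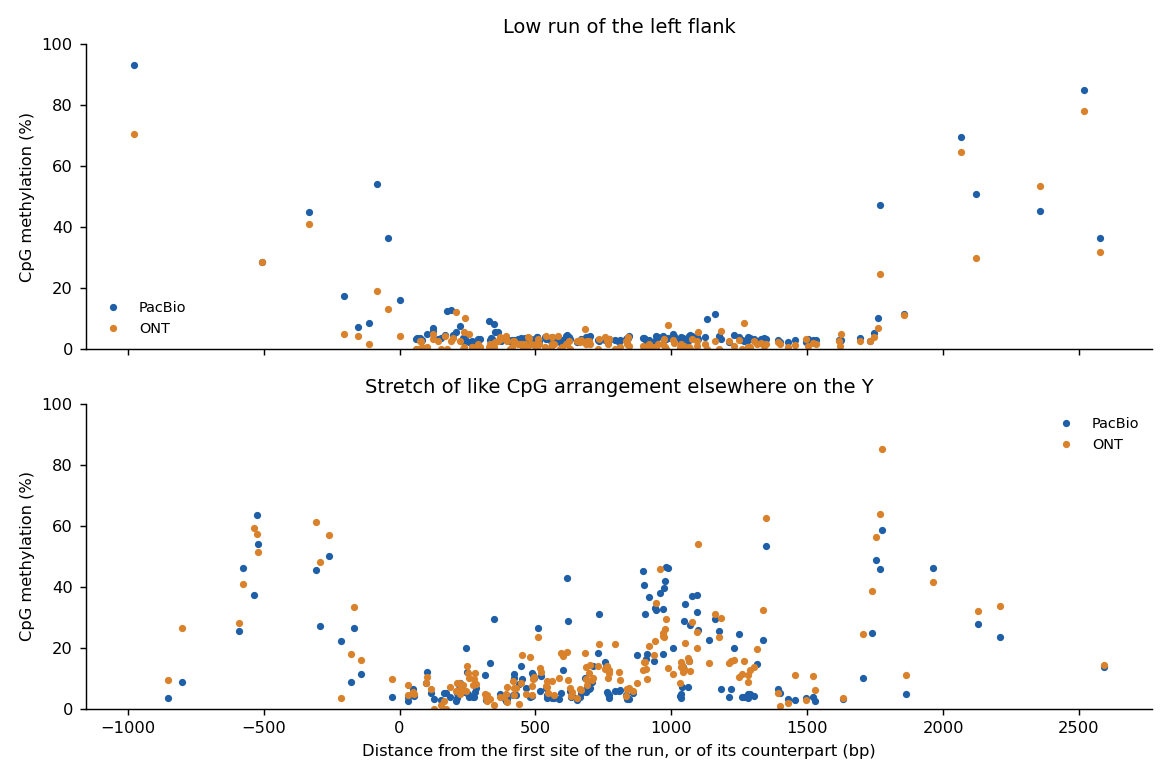
CpG methylation (%) of single sites on PacBio (blue) and ONT (orange) against the distance (bp) from the first site of the low run in the left flank (upper panel) and from the matching position at the second place on the Y-chromosome (lower panel), each with 1 kb on either side. Sites of the run stay at or below 16.0%, while those of the second place scatter higher, with means of 21.9% and 19.1% in the third of 4 equal parts.

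The only other run of low methylation lay in the right flank and was short. At chrY:8260902-8260989, 101746 bp from the edge, 6 consecutive sites within 88 bp had 9.62% (SD 7.76) on PacBio and 7.57% (SD 8.28) on ONT, with single sites up to 24.0% and 23.7%. On the lower side, the site 24 bp away had 57.2% on PacBio and 28.1% on ONT. On the higher side, PacBio gave the sites 21, 30 and 36 bp away 34.3%, 49.0% and 55.5%, and ONT gave them 13.3%, 25.6% and 47.1%, so that on ONT the first of them lay within the range of the run. Of the 11 sites in the 1 kb below it the mean was 65.2% and 49.2%, and of the 22 sites in the 1 kb above it 50.6% and 41.9%. The nearest annotated gene was 33610 bp away. By the same rule the male-specific region held 392 runs with a median of 6 sites, or 1 run per 48.2 kb against 1 per 121 kb in the flanks, so that the right run is of common size and the left run is among the 4 with 160 sites or more.

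The other CpG-dense bins were methylated. Bins with 30 or more CpG sites, a limit chosen after the values were seen, numbered 10 on the left and 1 on the right, in 5 and 1 stretches. Apart from the 2 bins of the low run, their PacBio values lay between 59.8% and 91.0%. The stretch at 35 to 38 kb on the left held 163 sites at 77.4% (SD 19.6) on PacBio and 65.3% (SD 18.8) on ONT. The stretch at 17 to 19 kb held 119 sites at 71.5% (SD 23.1) and 62.6% (SD 18.6). The 161 sites in the 2 bins of the low run had 4.09% and 2.30%.

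Both of these methylated stretches were uneven. Within 17 to 19 kb, the 250 bp nearest to the array had 41.2% on PacBio and 37.5% on ONT over 11 sites, and the step at chrY:8019893-8020142, farther out, had 90.5% and 79.8% over 10 sites. Within 35 to 38 kb the middle was highest. The outermost step had 73.5% and 48.1% over 13 sites. The 250-bp step at chrY:8000643-8000892, near the outer end, had 55.0% and 45.3% over 28 sites, and the step at chrY:8001393-8001642, nearer to the array, had 92.8% and 78.8% over 15 sites. The last 2 steps towards the array had 71.0% and 61.3% over 10 sites, and 68.1% and 61.8% over 2 sites. Neither stretch recurred on the chromosome with as high a share of coinciding sites as the low run, with 30.3% and 26.4% at the best place.

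At the left border, the CpG-dense sequence of the array ran on into the flank. The first bin outside of the array held 74 CpG sites and the second 47, against 12 in the third, and a gap of 425 bp without a CpG follows the last site of this dense part, 1698 bp from the edge. Its 121 sites had 61.3% (SD 19.0) on PacBio and 57.2% (SD 16.5) on ONT. The outermost 5 kb of the array on this side had 59.7% and 54.2% over 476 sites. Its 1-kb bin at the border, with 51.4% and 46.9% over 81 sites, was below the first bin of the flank, with 59.8% and 56.4%, on both platforms.

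The CpG sites of the array repeat at 2516 bp, the lag at which most array sites have another array site. In the first left bin, 63.5% of the sites had an array site within 2 bp of that lag, against a median of 37.8% over all lags from 100 to 6000 bp. Exactly at 2516 bp the share was 6.76%, and exactly at 2515 bp it was 43.2%, against a median of 8.11%, so the first left bin carries the array's spacing 1 bp short. In the second bin 38.3% had such a partner, which equals the median over lags, and the best lag was 2064 bp with 40.4%. The reach by the share of 50% was thus 1 kb on the left. On the right, 28.6% of the 7 sites of the first bin had a partner, and the reach was 0 kb.

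At the right border, the array's CpG-dense sequence ended before the border was reached. Taking as dense each site with at least 20 CpG sites within 500 bp, a rule set after the values were seen, the dense sequence ran from chrY:8036695 to chrY:8157314. It thus passed the left border by 1698 bp and stopped 1842 bp short of the right border. Its length of 120620 bp is close to the 120764 bp between the borders. Whether the borders and the methylation files refer to the same version of the assembled sequence was not tested. Distances are counted from the borders as given, and counted from the dense sequence every left distance would be 1698 bp shorter and every right distance 1842 bp longer. The 15 CpG sites in the array's last 1842 bp had 30.8% on PacBio and 39.1% on ONT. The first CpG site of the flank, 59 bp beyond the border, was followed by a gap of 121 bp.

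The sequence on both sides of the right border was the least methylated stretch next to the array. PacBio gave the 5 bins of the right flank nearest to the array 19.9%, 30.5%, 41.6%, 20.2% and 36.5%, and ONT gave them 28.9%, 35.6%, 52.8%, 26.0% and 32.2%, over 7, 8, 11, 2 and 6 sites. The 5 left bins stood at 59.8%, 63.7%, 55.9%, 60.5% and 42.4% by PacBio and at 56.4%, 58.5%, 51.9%, 58.3% and 37.2% by ONT, over 74, 47, 12, 13 and 6 sites. The lowest of the first 3 left bins thus lay above the highest of the first 3 right bins on PacBio, while on ONT the third right bin passed the third left one. The sides are not alike in sequence. The first 2 left bins hold the CpG-dense sequence that runs on from the array, while the right bins begin 1842 bp beyond its end.

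The first 6 kb of the right flank had 32.6% (SD 22.8) on PacBio and 38.3% (SD 20.5) on ONT over 38 sites, and the rest of that flank had 57.0% and 49.3%. The pooled shares were 32.0% (95% Wilson interval 29.2 to 34.9) and 37.1% (35.4 to 38.8). The length of 6 kb was chosen after the values were seen. From 6 to 7 kb the level was back at 67.1% and 56.9% over 10 sites.

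Over the first 10 kb, the right flank had 46.4% on PacBio and 46.4% on ONT over 76 sites, a difference from its rest of -10.5 points on PacBio and -2.81 on ONT. The left flank had 59.7% and 54.9% over 197 sites, which was 1.84 and 5.45 points above its rest. Of these 197 sites, 121 lie in the CpG-dense sequence that runs on from the array. The right ONT value and the left PacBio value were smaller than the SD between the platforms, 5.44 points on the right and 2.56 on the left. Without the low run, the difference of the left flank was -4.87 points on PacBio and -0.43 on ONT, so no raised level next to the array can be stated for the left side.

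The platforms changed places at the right border. In the first 6 kb PacBio was below ONT by 5.66 points, and it was the higher value at 13 of 38 sites, while over the whole right flank it was above by 7.19 points. Together with the sparse end of the array, 53 sites over 7842 bp had 32.1% on PacBio and 38.5% on ONT, and ONT was higher at 37 of them. At the 4 CpG sites nearest to the edge the values were 4.70%, 8.50%, 10.4% and 8.40% on PacBio and 21.7%, 14.9%, 47.0% and 22.4% on ONT, with 26 or 27 PacBio reads and 83 to 87 ONT calls each. PacBio depth in this stretch, with a median of 26 reads, was below the 41 of the flank, and ONT depth, with 82.5 calls, was near the flank's 87. The part of depth in the platform difference was not tested.

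**Figure D3:**
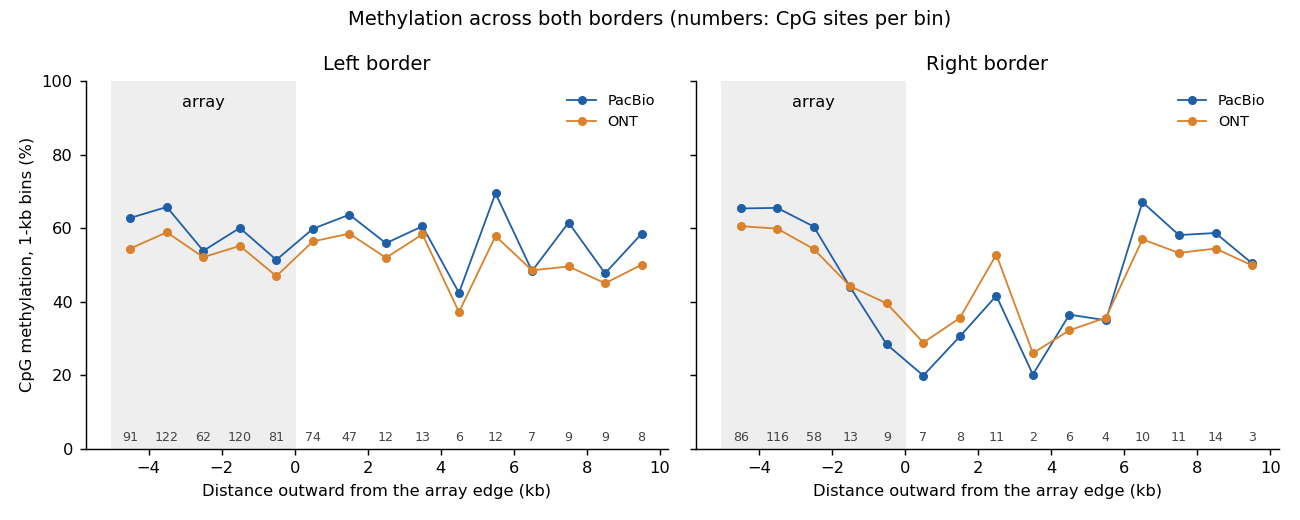
CpG methylation (%) in 1-kb bins on PacBio (blue) and ONT (orange) from 5 kb inside the array (grey) to 10 kb outside, with the number of CpG sites of each bin along the bottom. Across the left border both lines stay between 37.2% and 69.5%, and in the first 6 kb beyond the right border they vary between 19.9% and 41.6% on PacBio and between 26.0% and 52.8% on ONT, with 67.1% and 56.9% in the next bin.

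With distance, neither flank rose or fell steadily. In bands of 10 kb, the left flank lay between 52.1% and 70.3% on PacBio and between 45.8% and 58.8% on ONT, apart from the band from 80 to 90 kb with the low run, which had 17.5% and 14.6%. The highest left band was that from 30 to 40 kb and the lowest of the others that from 60 to 70 kb. The right flank lay between 46.4% and 65.6% on PacBio and between 41.9% and 57.0% on ONT. Its lowest band was the first one on PacBio and that from 110 to 120 kb on ONT. The short last bands, with 6 and 4 sites, are left out of these ranges.

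Further low bins were single and poor in CpG sites. On the left, the bin at 10 to 11 kb had 21.9% (SD 12.6) on PacBio and 12.3% (SD 3.08) on ONT over 3 sites. On the right, the bin at 99 to 100 kb had 23.1% and 21.4% over 5 sites, and the bin at 81 to 82 kb had 31.1% and 18.5% over 3 sites. The bins at 38 to 39 kb (5.90% and 17.5%) and 52 to 53 kb (13.7% and 12.9%) on the right held 2 sites each, under the minimum of 3. Each of these 5 bins lay between bins of higher level.

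Among the highest bins, those of the left flank were the bin at 84 to 85 kb named above, that at 36 to 37 kb with 91.0% and 77.6% over 32 sites, and that at 18 to 19 kb with 85.1% and 74.0% over 38 sites. On the right, the bin at 68 to 69 kb had 82.2% and 70.9% over 30 sites, that at 106 to 107 kb 76.2% and 68.5% over 16 sites, and that at 84 to 85 kb 75.1% and 67.3% over 19 sites. The highest bins thus held more sites than the median bin, except for the one beside the low run.

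For gaps up to 300 bp, sites with closer neighbours had higher levels, on the left only once the low run was left out. On the right, over all sites, those whose nearest other CpG was within 10 bp had 73.8% on PacBio and 65.5% on ONT (227 sites), those at over 10 to 30 bp had 59.9% and 53.8% (326 sites), those at over 30 to 100 bp had 48.3% and 40.7% (409 sites), and those at over 100 to 300 bp had 44.9% and 38.3% (167 sites). The left flank gave the same order once the low runs were left out, with 72.6% and 63.6% (507 sites), 67.8% and 58.9% (419 sites), 54.0% and 45.8% (415 sites), and 50.2% and 42.6% (129 sites). With the low run, the closest class on the left was at 57.3% and 49.9%. Elsewhere in the male-specific region the closest class had 72.6% and 64.0%, and the class of over 100 to 300 bp had 43.6% and 36.3%. Sites with no other CpG within 300 bp had 42.2% and 36.6% on the right (12 sites), 52.1% and 40.4% on the left (14 sites) and 46.0% and 38.6% elsewhere in the male-specific region (1416 sites), where they turned the order on both platforms, as they did on the left on PacBio.

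**Figure D4:**
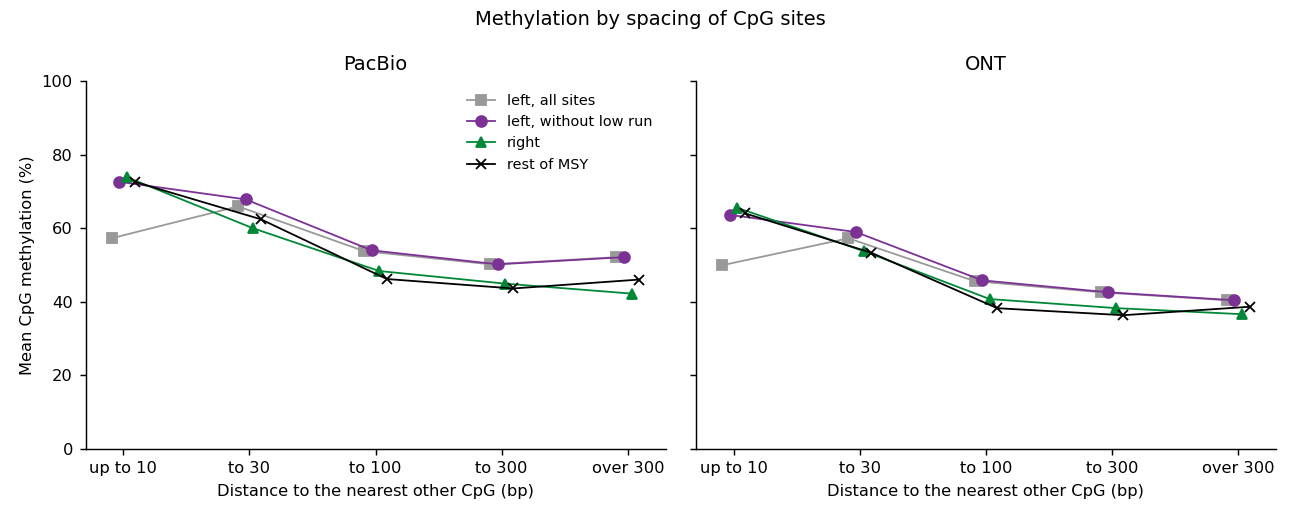
Mean CpG methylation (%) on PacBio and on ONT by the distance (bp) to the nearest other CpG site, for the left flank with all sites (grey), the left flank without low runs (purple), the right flank (green) and the rest of the male-specific region (MSY, black). The level falls from 72.6% to 73.8% in the closest class to between 43.6% and 50.2% at over 100 to 300 bp on PacBio, except where the low run is kept.

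Bins showed the same order. Over the 115 right bins, the Pearson correlation of PacBio methylation with the log2 number of CpG sites was 0.55, and of ONT 0.57. Over the 116 left bins without the 2 low ones, it was 0.40 and 0.39, and with them 0.12 and 0.13. These values describe bins of 1 library per platform, which share reads and base composition.

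Neighbouring sites were alike only at short range. Outside of the low runs, adjacent sites up to 10 bp apart differed by 9.81 points on PacBio and 8.94 on ONT on the left (320 pairs) and by 9.26 and 8.28 on the right (128 pairs). At over 30 to 100 bp the difference was 22.8 and 20.6 points on the left and 24.3 and 21.6 on the right. Beyond that distance it grew little, with 26.4 and 22.7 points on the left and 25.4 and 22.2 on the right at over 100 to 300 bp. In that class, both platforms gave the difference the same sign in 76.2% of the left and 82.0% of the right pairs. For pairs up to 10 bp apart, where the differences were small, the sign was the same in 62.8% of the left and 68.0% of the right pairs.

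The annotated genes that overlap the flanks are 3, none of them protein-coding. In the left flank, LOC132659054 had 59.3% (SD 20.9) on PacBio and 52.7% (SD 20.5) on ONT over 60 sites. Within 500 bp of its start it had 61.4% and 50.4% over 13 sites, and within 500 bp of its end 53.2% and 51.4% over 9 sites. All left sites outside of genes had 58.0% and 49.99%, below the gene on both platforms, and without the low run these sites had 64.1% and 55.4%, above it.

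In the right flank, LOC132658882 is a pseudogene at chrY:8172446-8220698 on the plus strand, which the study's gene list names ZMYND8, after a chromatin reader with a zinc finger of the MYND type. It holds 479 of the 1141 right sites, at 57.9% (SD 23.5) on PacBio and 51.3% (SD 21.2) on ONT. In 5 equal parts along its length the level was between 52.6% and 63.0% on PacBio and between 46.8% and 54.5% on ONT. Within 500 bp of its annotated start it had 72.8% (SD 24.5) and 62.8% (SD 21.2) over 13 sites.

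LOC132658958 is a pseudogene at chrY:8223963-8227292 on the minus strand, listed by the study as TSPY3. The functional members of that family are testis-specific genes present in many copies on the Y-chromosome. It had 64.4% (SD 24.9) on PacBio and 54.4% (SD 23.7) on ONT over 45 sites. Within 500 bp of its start, 36 sites had 78.8% (SD 21.5) and 68.9% (SD 21.6), and within 500 bp of its end 8 sites had 60.2% and 51.1%. The start lies in the bin at 68 to 69 kb, the highest of the right flank. The 30 CpG sites of that bin coincided with CpG sites at other places of the Y-chromosome at 26 sites at the best place, in the same orientation, and at 24 sites at the best place in the reverse one. Reads from near-identical copies could be assigned to one another, and the part of this in the values was not tested.

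Right sites in the annotated genes had 58.5% and 51.6% (524 sites), and right sites outside of them had 54.2% and 46.7% (617 sites). The difference was 4.33 points on PacBio and 4.88 on ONT, with the same sign on both platforms. PacBio depth was also higher in the genes, 46.5 against 38 reads, and its part in the difference was not tested. The sites outside of genes include the first 6 kb next to the array, with 32.6% and 38.3% over 38 sites. Their part was not tested either.

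The median depth was 33 PacBio reads and 96 ONT calls on the left, and 41 reads and 87 calls on the right. No site fell under 23 PacBio reads or 33 ONT calls. At 33 reads a single PacBio site moves by several percentage points with each read, so single sites are less certain than means of bins. Bins ran from 24 to 156 PacBio reads and 75 to 173.5 ONT calls on the left, and from 25 to 81 reads and 72 to 102 calls on the right.

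PacBio depth was low next to the array on both sides, with 25 to 27.5 reads in the first 3 left bins and the first 5 right bins, while ONT depth there, 72 to 86 calls, was closer to the flanks' medians. On the right, PacBio depth was between 55 and 81 reads from 42 to 58 kb, where ONT depth stayed between 81 and 100 calls. The 12 deep PacBio bins of this flank, with at least 1.5 times its median, had 60.7% on PacBio and 54.4% on ONT over 135 sites.

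On the left, both platforms were deep at 104 to 111 kb, at chrY:7927393-7934392, the longest row of bins with at least 2 times the flank's median PacBio depth, a rule set after the values were seen. The median there was 117 PacBio reads and 139 ONT calls over 93 sites, against 44 reads and 96 calls in the rest of the sequence from 94 kb outward. Single sites reached 165 reads and 223 calls. Methylation was 58.2% (SD 18.3) and 51.7% (SD 16.5), against 68.3% and 58.4% around it. Reads with no call at the CpG, neither valid nor between the thresholds, made up 24.3% of ONT coverage there and 14.7% around it, and the next bin outward, at 111 to 112 kb, is the only one of the flanks without a CpG site. The part of depth in the lower level was not tested.

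**Figure D5:**
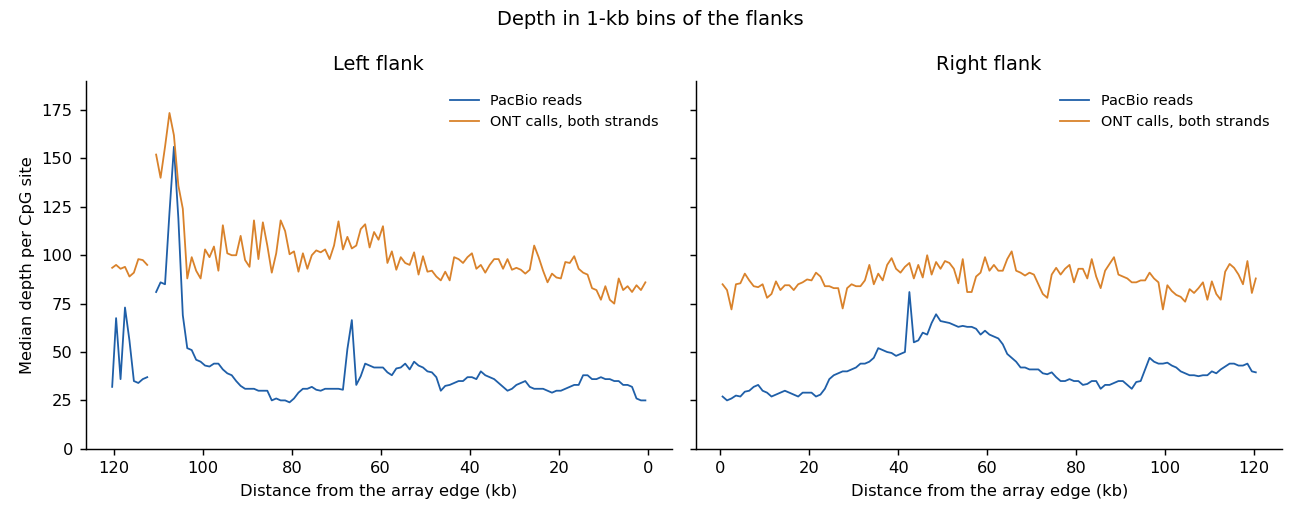
Median depth per CpG site in 1-kb bins against the distance from the array edge (kb), as PacBio reads (blue) and ONT calls of both strands (orange). Both lines rise together at 104 to 111 kb on the left, to 156 reads and 173.5 calls, while PacBio alone rises in the middle of the right flank, to 81 reads.

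Among bins with at least 3 sites, platform differences reached 22.3 points on the left and 21.3 on the right. The largest on the left was at 113 to 114 kb, with 77.8% on PacBio and 55.5% on ONT over 6 sites, followed by 96 to 97 kb with 62.0% and 40.5% over 3 sites and 51 to 52 kb with 53.9% and 32.9% over 4 sites. On the right they were at 116 to 117 kb, with 38.8% and 17.5% over 6 sites, at 117 to 118 kb, with 56.8% and 38.3% over 10 sites, and at 104 to 105 kb, with 73.3% and 55.0% over 7 sites. PacBio was the higher platform in 109 of 118 left bins and 103 of 115 right bins. Over the bins the platforms had a Pearson correlation of 0.90 on the left and 0.90 on the right.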

How the data were processed

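Lung DNA of 1 fetus was read on PacBio and ONT, with 1 library on each platform. For PacBio, the authors ran Primrose, aligned with pbmm2 and deposited, from the pileup model of pb-CpG-tools, a modelled methylation percentage per CpG site with counts of valid, methylated and unmethylated reads. For ONT, the authors called modifications with Dorado, aligned with Winnowmap and deposited, from modbam2bed, counts of methylated, unmethylated and unassigned calls per strand, a percentage and a score for the share of valid calls. Calls between 20% and 80% probability entered no percentage, which leaves out 13.5% of left and 12.9% of right calls. The methods do not state which filter was applied to the ONT alignments.

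Here both strands of a CpG were added, and a region is the mean over its sites with at least 5 calls, which 0 sites failed. No p-value was computed, since reads span several sites. Low runs are at least 5 consecutive sites of at most 30% on both platforms. Gene coordinates are from RefSeq, names and strands from the study's gene list. No genome sequence was used, so the comparison of stretches rests on CpG positions. Named bins were the 5 next to the array, the 3 lowest and 3 highest, and the 3 with the largest platform difference on each side, together with every low run and gene. The members, lists and rules were chosen with earlier results of these data known. The run finder and the lag search were tested on simulated data. Alternatives were compared with the SD between the 2 platforms. Python 3.11.15, pandas 2.3.3 and numpy 2.4.6 were used.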

Additional observations from a re-analysis of the deposited data

Results flagged for a closer look

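The first 10 kb from the array edge, set against the rest of the same flank, had opposite signs on the 2 sides. It was higher by 1.84 percentage points on PacBio and 5.45 on ONT in the left flank. In the right flank the difference was -10.5 points on PacBio and -2.81 on ONT. The left PacBio value and the right ONT value were smaller than the SD between the platforms, 2.56 points on the left and 5.44 on the right. Each side is 1 animal on 2 platforms, and the difference between the sides was not tested. The left value rests on the low run 81 kb away, without which it was -4.87 and -0.43 points, and the left and right sides then no longer differ in sign. Of the 197 left sites, 121 also lie in the CpG-dense sequence that runs on from the array, at 61.3% and 57.2%. The value without these sites alone was not computed.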

How the results depend on the processing

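Of 95 alternative values for 18 results, 67 stayed within the SD between the platforms or, for counts, within 1.5 times, 23 moved farther with the same sign and 5 changed sign. The difference of left minus right flank on PacBio and ONT was 3.80 and 4.33 points with medians over sites, 2.55 and 0.280 pooled over calls, 7.10 and 5.31 over 1-kb bins, 7.48 and 6.07 without low runs, and, chosen after seeing the data, 5.87 and 4.22 without CpG-dense bins. It kept its sign throughout. Without low runs the left flank had 63.9% on PacBio. For the first 10 kb minus the rest, the left flank had 6.86 and 8.14 points over 20 kb, -2.89 and 0.53 over bins, -4.87 and -0.43 without low runs, and -4.62 and -1.54 without CpG-dense bins, and the right flank had -24.5 and -10.7 over 5 kb. Low bins numbered 8 at 30% or less and 5 on ONT alone. Low runs numbered 8 with sites up to 40%, 1 with at least 10 sites, 4 on PacBio alone and 6 on ONT alone. The reach of the array spacing on the left was 0 kb with the exact lag. Apart from the alternatives named, the cause was not tested. Coverage minimums of 10 and 20 calls changed no value, since no site fell below them. They are counted among the 67 all the same, so that number overstates how much was tried. No paired analysis was possible because there is 1 animal, with 1 library per platform, and no result comes from a test. With 1 animal, biological variation has no estimate here, and bins with few CpG sites are the least certain.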
